A study of Homo sapiens with 12 samples.

Results

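The messenger RNAs described here encode 54 proteins of RNA decay, out of 58721 genes counted in each library. They were chosen by symbol as the subunits and close partners of the RNA exosome and its helicases (16 genes), the 5'-3' exonucleases (2), the decapping machinery (11), the CCR4-NOT deadenylase (11), PAN2-PAN3 and PARN (3), the antiproliferative adaptors TOB1 and BTG1 (2) and nonsense-mediated decay (NMD, 9). All 54 were found and all passed the filter on low counts in every comparison. The cells were HepG2, a human liver cancer line, transfected with a control siRNA (siControl) or with one that targets IGF2BP3 (siIGF2BP3), which binds RNA and belongs to the IGF2BP proteins, and lysed 2 days later after 4 min in 100 µg/mL cycloheximide, which holds ribosomes in place. From each condition 3 Input libraries were made as a measure of transcript level, together with 3 libraries of ribosome-protected fragments (RPF, 28 to 30 nt), so that there were 12 libraries in 4 groups. The knockdown was transient, so that every group holds HepG2 cells of one line. The labels name only the siRNA and the assay as differences between the groups.

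Cytoplasmic mRNA decay usually starts with shortening of the poly(A) tail by PAN2-PAN3 and CCR4-NOT. The body of the mRNA is then degraded from the 5' end after DCP2 removes the cap and XRN1 digests the rest, or from the 3' end by the exosome, a barrel of 9 subunits to which the nucleases DIS3, DIS3L or EXOSC10 bind. NMD recognises transcripts on which translation stops early, and the helicase UPF1 is phosphorylated by the kinase SMG1. SMG6, itself an endonuclease, then cuts the RNA, and SMG5 and its partners hand it to other nucleases. Several NMD factors are known to be encoded by mRNAs that NMD itself degrades.

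Depth was between 11219750 and 31510601 counts per library. IGF2BP3 itself had 133, 129 and 127 CPM (the count of a gene scaled to the same total in all libraries) in siControl Input and 103, 97.9 and 105 CPM in siIGF2BP3 Input, with 74.6, 78.1 and 77.7 CPM in siControl RPF and 21.9, 28.0 and 25.2 CPM in siIGF2BP3 RPF. The liver marker AFP was at 7229 CPM or more in every library, whereas the leukocyte marker PTPRC was at 0.0234 CPM or less, the fibroblast marker COL1A1 at 0.636 CPM or less and the endothelial marker PECAM1 between 1.01 and 4.97 CPM. Among the RPF libraries, siControl replicates 2 and 3 agree within sampling noise (mean chi-square 0.941 per gene over 19831 genes and 1.06 over 12289 protein-coding genes, where 1 is expected from counting alone, against 2.80 and 2.09 over all genes for replicate 1 against each) and were counted as 1 sample in means and SDs. The RPF library labelled siIGF2BP3 replicate 1 stood apart from the others of its group (mean chi-square 19.9 and 21.6, against 1.15 between those others). Results on RPF are therefore given with all libraries, with siControl replicates 2 and 3 summed, and without siIGF2BP3 RPF replicate 1. The last fit holds only siIGF2BP3 RPF replicates 2 and 3, which agree nearly within sampling noise, and keeps siControl replicates 2 and 3 apart. Its standard errors and p-values therefore rest on a small spread between libraries. The labels do not say whether replicates came from separate cultures, and the p-values then measure only the spread between these libraries.

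In control cells the decay mRNAs differed widely in how many footprints they carried for their level. Log2 RPF/Input was set to 0 at the median protein-coding gene. It ran from -3.49 for UPF3A, a paralogue of the NMD factor UPF3B, to 2.65 for EXOSC5, a ring subunit of the exosome. This is a 70.7-fold range. Its low end is uncertain, because UPF3A had fractional counts in all 12 libraries, as happens when reads are split between several places. UPF3B, the next lowest, was at -2.70. The SD over the 54 genes was 1.51, against 1.43 over the 11773 protein-coding genes tested, and 12 of the 54 were above 1 and 15 below -1 (22.5% and 23.8% of all protein-coding genes). The standard error of a single value was between 0.05 and 0.22. In the quasi-likelihood test of edgeR, 52 of the 54 departed from the median gene, 27 above and 25 below, beside 86.7% of all genes tested (43.4% above and 43.3% below). In the order from high to low, 33 of the 53 neighbouring pairs lay closer than 1 joint standard error and cannot be ordered. RPF/Input sets footprints, which come from the coding sequence, against reads of the whole transcript, and the 2 kinds of library were not made alike, so that only the position of a gene among the others is read.

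**Figure D1:**
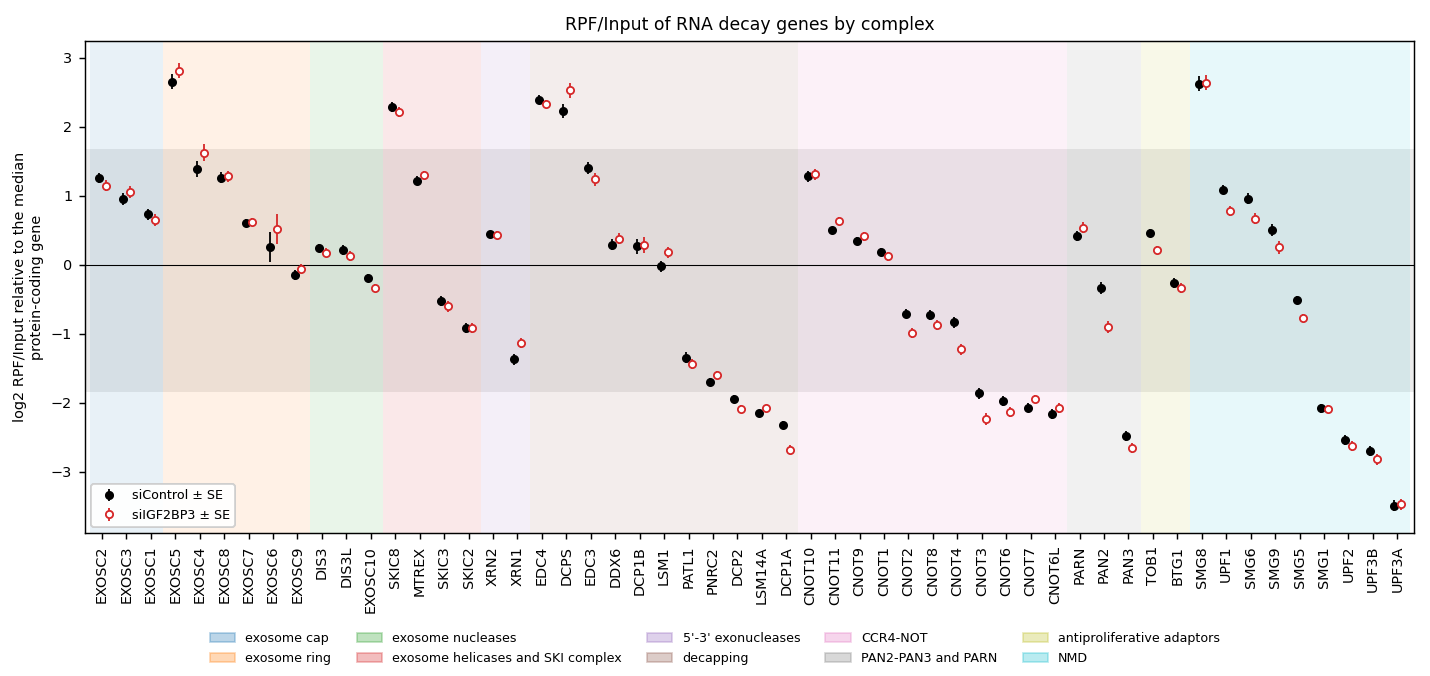
Log2 RPF/Input of the 54 decay genes (vertical axis, relative to the median protein-coding gene) in siControl (black) and siIGF2BP3 (red, open), with standard errors, grouped by complex (coloured bands) and ordered by value within each. The grey band spans the 10th to the 90th percentile of protein-coding genes, -1.84 to 1.68, and all 3 exosome cap subunits lie above 0 while 12 genes lie below the band, among them UPF2, UPF3A, UPF3B and PAN3.

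The bases around the start codon are shown for the genes at both ends of this order and for 2 pairs of related enzymes, because they let the reader compare the place where translation begins. Each run has 10 bases before the start codon of the MANE Select transcript (GENCODE release 44), the ATG in capitals and the bases that follow, 20 in all, with the hg38 position of the ATG. A context is called strong here when A or G stands 3 bases before the ATG and G directly after it.
EXOSC5 at chr19:41397326-41397328, minus strand: gctcggcgcgATGgaggagg
SMG8 at chr17:59210052-59210054, plus strand: gctctgcactATGgctggtc
EDC4 at chr16:67873262-67873264, plus strand: cgcagggcccATGgcctcct
UPF2 at chr10:12035421-12035423, minus strand: gggtcacataATGccagctg
UPF3B at chrX:119852926-119852928, minus strand: ggacgtagccATGaaggaag
UPF3A at chr13:114281640-114281642, plus strand: agagtgcggcATGcgctcgg
XRN1 at chr3:142447942-142447944, minus strand: gacgatcgaaATGggagtcc
XRN2 at chr20:21303399-21303401, plus strand: gtgtgccgctATGggagtcc
DCP1A at chr3:53347515-53347517, minus strand: gggattcaagATGgaggcgc
DCP1B at chr12:2004429-2004431, minus strand: gggagggaagATGgcagccg

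EXOSC5 and SMG8 have a strong context, EDC4 does not, and neither do UPF2, UPF3A and UPF3B. Over the 54 genes, 22 had a strong context (40.7%, against 47.2% of protein-coding genes with a start codon read in the same way). The median log2 RPF/Input was 0.84 for these 22 and -0.42 for the others. Over all protein-coding genes the same medians were 0.07 and -0.09. EXOSC1, EXOSC2, EXOSC3, EXOSC5, EXOSC7, EXOSC8 and EXOSC10 are among the 22, but of the NMD genes only SMG6 and SMG8. Context and complex therefore cannot be told apart among the decay genes, and an effect of the context was not tested. Both XRN1 and XRN2 are strong by this rule, as are DCP1A and DCP1B, although the members of each pair lie far apart in RPF/Input.

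Most of the exosome barrel stood above the median gene, whereas the nucleases and helicases of the exosome lay on both sides. The test called all 3 cap subunits and 4 of the 6 ring subunits above it, beside 43.4% of all genes. All 3 cap subunits, which guide RNA into the barrel, were above the median gene, EXOSC2 at 1.26 ± 0.08 (SE), EXOSC3 at 0.95 ± 0.09 and EXOSC1 at 0.73 ± 0.08 on the log2 scale. EXOSC2 had 21.3, 19.7 and 19.4 CPM in the siControl Input libraries and 44.3, 44.8 and 40.9 CPM in the RPF libraries. EXOSC1 had 17.3, 15.9 and 14.4 CPM in Input and 22.8, 23.4 and 25.3 CPM in RPF. Of the 6 ring subunits 5 were above 0, EXOSC5 being the highest of all decay genes at 5.27, 6.69 and 7.14 CPM in Input and 37.1, 34.5 and 37.2 CPM in RPF. EXOSC9 was the exception, at 54.1, 57.7 and 62.1 CPM in Input and 47.7, 49.2 and 44.5 CPM in RPF, and its log2 RPF/Input of -0.15 ± 0.07 passed the test in only 7 of 19 alternative fits. EXOSC6, at 0.26 ± 0.22, had fractional counts in all 12 libraries, as happens when reads are split between several places, and is uncertain. EXOSC3 had fractional counts in 10 libraries. It shares 4.96% of its exon bases with a protein-coding gene on the same strand, counted at 97.3 CPM in siControl Input.

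Expressed per length, the 9 barrel subunits were closer to each other in footprints than in transcript level. In siControl RPF they lay between 35.8 CPM per coding kb (EXOSC9) and 72.4 (EXOSC8), a 2.02-fold range, and in siControl Input between 4.28 CPM per kb of all annotated exons (EXOSC5) and 14.4 (EXOSC4), a 3.37-fold range, or 6.08-fold per kb of the MANE Select transcript. A narrower range in footprints was not particular to the barrel: it went from 33.4-fold in Input to 6.68-fold in RPF among the 9 NMD factors, from 34.5-fold to 15.9-fold among the 11 decapping genes and from 53.6-fold to 30.5-fold over all 54. Among the 11 CCR4-NOT genes the range was wider in footprints, 25.02-fold against 12.6-fold in Input. The 3 exosome nucleases were near the median gene, from -0.19 ± 0.05 for the nuclear EXOSC10 to 0.25 ± 0.06 for DIS3. DIS3 had 51.5, 52.9 and 50.9 CPM in Input and 56.3, 54.1 and 55.9 CPM in RPF, and EXOSC10 97.9, 96.8 and 97.4 CPM in Input and 79.5, 75.9 and 75.6 CPM in RPF. An overlap with BORA on the opposite strand covers 10.9% of the exon bases of DIS3, and without a stated strand setting reads there cannot be told apart.

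Among the helicases that feed RNA to the exosome, MTREX, the nuclear one, was at 1.22 ± 0.06 and SKIC2, its cytoplasmic counterpart in the SKI complex, at -0.92 ± 0.07. The other SKI subunits were further apart, with the scaffold SKIC3 at -0.53 ± 0.08 and the WD-repeat subunit SKIC8 at 2.29 ± 0.07. SKIC8 had 15.5, 14.9 and 13.6 CPM in Input and 65.8, 64.8 and 63.4 CPM in RPF, and SKIC2 56.9, 54.3 and 50.5 CPM in Input but 24.9, 25.8 and 26.4 CPM in RPF. The mRNAs of one complex thus stood on both sides of the median gene. SKIC2 also had fractional counts in all 12 libraries.

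The same held for pairs of related enzymes. XRN2, the nuclear 5'-3' exonuclease, was at 0.45 ± 0.05 and XRN1, the cytoplasmic one, at -1.37 ± 0.08. Per length, XRN2 was at 63.3 CPM per kb of all annotated exons in siControl Input against 4.76 for XRN1, and its footprints were 94.0 CPM per coding kb against 3.94. DCP1B was at 0.27 ± 0.11, whereas DCP1A, the other activator of DCP2, was at -2.32 ± 0.06, with 186, 167 and 172 CPM in Input and 30.7, 32.2 and 32.0 CPM in RPF. The deadenylases CNOT7 and CNOT8 were at -2.07 ± 0.06 and -0.73 ± 0.07. Their partners CNOT6 and CNOT6L lay close together at -1.97 ± 0.07 and -2.17 ± 0.07. Fractional counts were present in 10 libraries for CNOT7 and in 9 for CNOT6L.

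In decapping, the high end was held by the scaffold EDC4 at 2.39 ± 0.06 and the scavenger enzyme DCPS at 2.23 ± 0.10, and the low end by DCP1A, LSM14A (-2.15 ± 0.05), a P-body protein that binds the helicase DDX6, and DCP2 itself (-1.94 ± 0.06). EDC4 had 19.0, 17.5 and 17.1 CPM in Input and 86.5, 82.9 and 84.5 CPM in RPF. DDX6 was at 0.29 ± 0.08 and LSM1, a subunit of the cytoplasmic LSM ring, at -0.02 ± 0.08, which did not depart from the median gene. LSM14A had fractional counts in all 12 libraries. EDC4 shares 21.2% of its exon bases with a non-coding RNA on the same strand that was counted at 7.45 CPM in siControl Input. The counted exons of DCPS hold 3936 bases, against 5427 in its MANE Select transcript. Reads from the rest of that transcript were not counted, so that its RPF/Input is uncertain.

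In CCR4-NOT, 4 of 11 genes were above the median gene and 7 below, with a median of -0.73. The scaffold CNOT1, on which the complex is built, was at 0.18 ± 0.06, and CNOT10 was highest at 1.28 ± 0.08, with 18.7, 16.4 and 16.3 CPM in Input and 39.3, 37.2 and 35.9 CPM in RPF. All 4 catalytic subunits, CNOT6, CNOT6L, CNOT7 and CNOT8, were below the median gene. CNOT6L was the lowest of the complex, at 73.2, 63.7 and 69.7 CPM in Input and 13.5, 14.5 and 13.4 CPM in RPF. Among the other deadenylation genes, PARN was at 0.42 ± 0.07, the deadenylase PAN2 at -0.34 ± 0.09 and its regulatory subunit PAN3 at -2.48 ± 0.07. PARN had 34.5, 31.6 and 29.0 CPM in siControl Input and 39.7, 37.8 and 37.3 CPM in siControl RPF. TOB1, an adaptor that brings CCR4-NOT to mRNAs, was at 0.47 ± 0.06 and its relative BTG1 at -0.27 ± 0.07. BTG1 had 24.9, 25.2 and 25.8 CPM in siControl Input and 18.2, 19.4 and 19.5 CPM in siControl RPF.

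The NMD genes spread most widely. SMG8, a regulator of the SMG1 kinase, was at 2.62 ± 0.11, with 9.87, 8.92 and 11.2 CPM in Input and 54.3, 58.0 and 53.4 CPM in RPF. UPF1 followed at 1.09 ± 0.07, the endonuclease SMG6 at 0.96 ± 0.08 and SMG9 at 0.50 ± 0.09. SMG5 was at -0.51 ± 0.06, SMG1 at -2.08 ± 0.06, and UPF2, UPF3B and UPF3A, which link UPF1 to the exon junction complex, at -2.54 ± 0.07, -2.70 ± 0.08 and -3.49 ± 0.08. UPF3A had 236, 209 and 237 CPM in Input but 19.1, 18.2 and 17.4 CPM in RPF, which placed it at percentile 0.99 of protein-coding genes. The 6 NMD factors whose own mRNAs are known NMD targets, UPF1, UPF2, UPF3B, SMG1, SMG5 and SMG6, lay on both sides of the median gene. UPF3A and SMG1, which have sequence copies elsewhere in the genome, had fractional counts in all 12 libraries and are uncertain. SMG8 had fractional counts in 8 libraries. It shares 11.25% of its exon bases with a protein-coding gene on the same strand, counted at 4.14 CPM in siControl Input.

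Features of the transcripts moved with these values as they did over all genes, and are given as descriptions, with no test. The 29 decay mRNAs without an ATG triplet in the 5' leader had a median log2 RPF/Input of 0.45, the 22 with 1 or 2 a median of -0.52, and the 3 with 3 or more (CNOT6, CNOT7 and BTG1) a median of -1.97. Over all protein-coding genes with a MANE Select transcript the medians were 0.26, -0.28 and -0.77. UPF3A, UPF3B and DCP1A are among the 29 without such a triplet. The coding share of the transcript, 60.7% at the median for the decay genes and 49.3% for all, had a Pearson r with log2 RPF/Input of 0.28 over the 54 genes and 0.18 over all 11299. The Input level had an r of -0.71 over the 54 genes and -0.31 over all, but Input is also the divisor of the ratio, so that both quantities share a measurement. GC content of the transcript had an r of 0.42 and 0.22. Genes are not independent replicates in any of these.

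**Figure D2:**
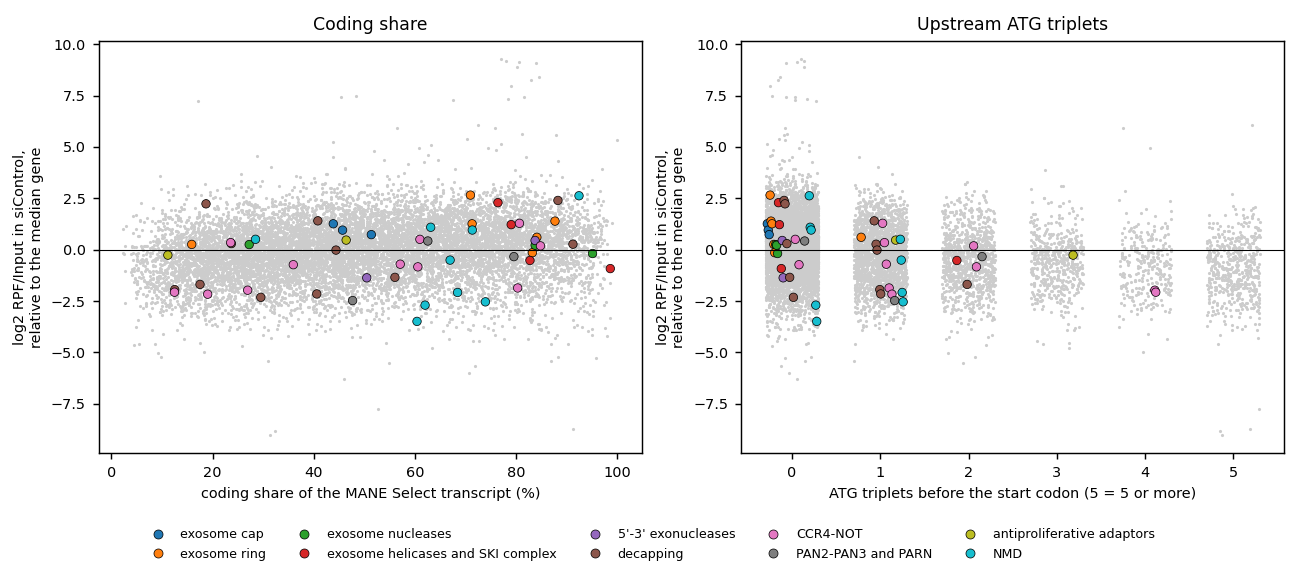
Log2 RPF/Input in siControl (vertical axes) against the coding share of the MANE Select transcript (left, percent) and the number of ATG triplets before the start codon (right, points spread sideways for visibility). Coloured points are the 54 decay genes by complex and grey points all protein-coding genes tested with such a transcript. The decay genes without an upstream ATG span -3.49 to 2.65, and the 3 with 3 or more lie between -2.07 and -0.27.

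After IGF2BP3 knockdown, 3 of the 54 genes rose in transcript level and none fell (edgeR adjusted p under 0.05). The background is 5.96% of the 14759 genes tested in either direction, 4.05% higher and 1.9% lower. At an unadjusted p under 0.05 edgeR had 11 of the 54, beside 3017 of the 14759. DESeq2 called 2 of the 54, both higher, beside 4.86% of all genes. It gave no adjusted p, and so could make no call, for 6 of the 54 and for 6581 of the 14759 genes. The median log2 change of the 54 was 0.02, against 0.00 for all genes. PAN2 (chr12:56316223-56334053, minus strand) had 23.2, 28.5 and 24.6 CPM in siControl Input, and reached 37.0, 32.8 and 35.8 CPM in siIGF2BP3 Input, so that the groups did not overlap. Its log2 change was 0.41 ± 0.08 (SE, edgeR adjusted p = 0.0030), and the call held in all 14 alternative fits. CNOT2 (chr12:70242994-70354993, plus strand), a structural subunit of CCR4-NOT, was at 77.4, 77.3 and 76.4 CPM in siControl and 95.0, 88.2 and 94.1 CPM in siIGF2BP3, again without overlap (0.21 ± 0.05, edgeR adjusted p = 0.015). PAN3 (chr13:28138506-28295335, plus strand), the partner of PAN2, was at 58.7, 65.5 and 63.2 CPM in siControl and 75.7, 72.6 and 74.9 CPM in siIGF2BP3 (0.20 ± 0.06, edgeR adjusted p = 0.039). The footprints of PAN3 overlapped, at 10.0, 10.4 and 9.98 CPM in siControl RPF and 8.90, 10.6 and 10.6 CPM in siIGF2BP3 RPF.

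The PAN3 call is the weakest of the 3: it held in 6 of 14 alternative fits and was lost with DESeq2 and without any one of siControl replicates 1 and 3 and the 3 siIGF2BP3 replicates. CNOT2 lost its call without siControl replicate 3, siIGF2BP3 replicate 1 or siIGF2BP3 replicate 3, and its edgeR adjusted p over the 14 alternatives was between 0.0031 and 0.070. PARN, a further deadenylase, was at 34.5, 31.6 and 29.0 CPM in siControl and 32.5, 31.4 and 30.8 CPM in siIGF2BP3. By level alone, 13 of the 54 genes had all siIGF2BP3 Input libraries above all siControl Input libraries and none had them all below, beside 19.2% and 5.73% of the genes tested. Besides PAN2, CNOT2 and PAN3, these 13 included XRN1, UPF1, SMG5, TOB1, BTG1, CNOT1, SKIC3, EXOSC3, EXOSC10 and DIS3. SMG5 had 44.9, 46.8 and 47.5 CPM in siControl and 54.9, 56.8 and 52.3 CPM in siIGF2BP3, with a log2 change of 0.19 ± 0.06 that missed the threshold (edgeR adjusted p = 0.071). BTG1 had 29.4, 29.2 and 30.8 CPM in siIGF2BP3 Input against the siControl values above (0.19 ± 0.08, edgeR adjusted p = 0.15).

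**Figure D3:**
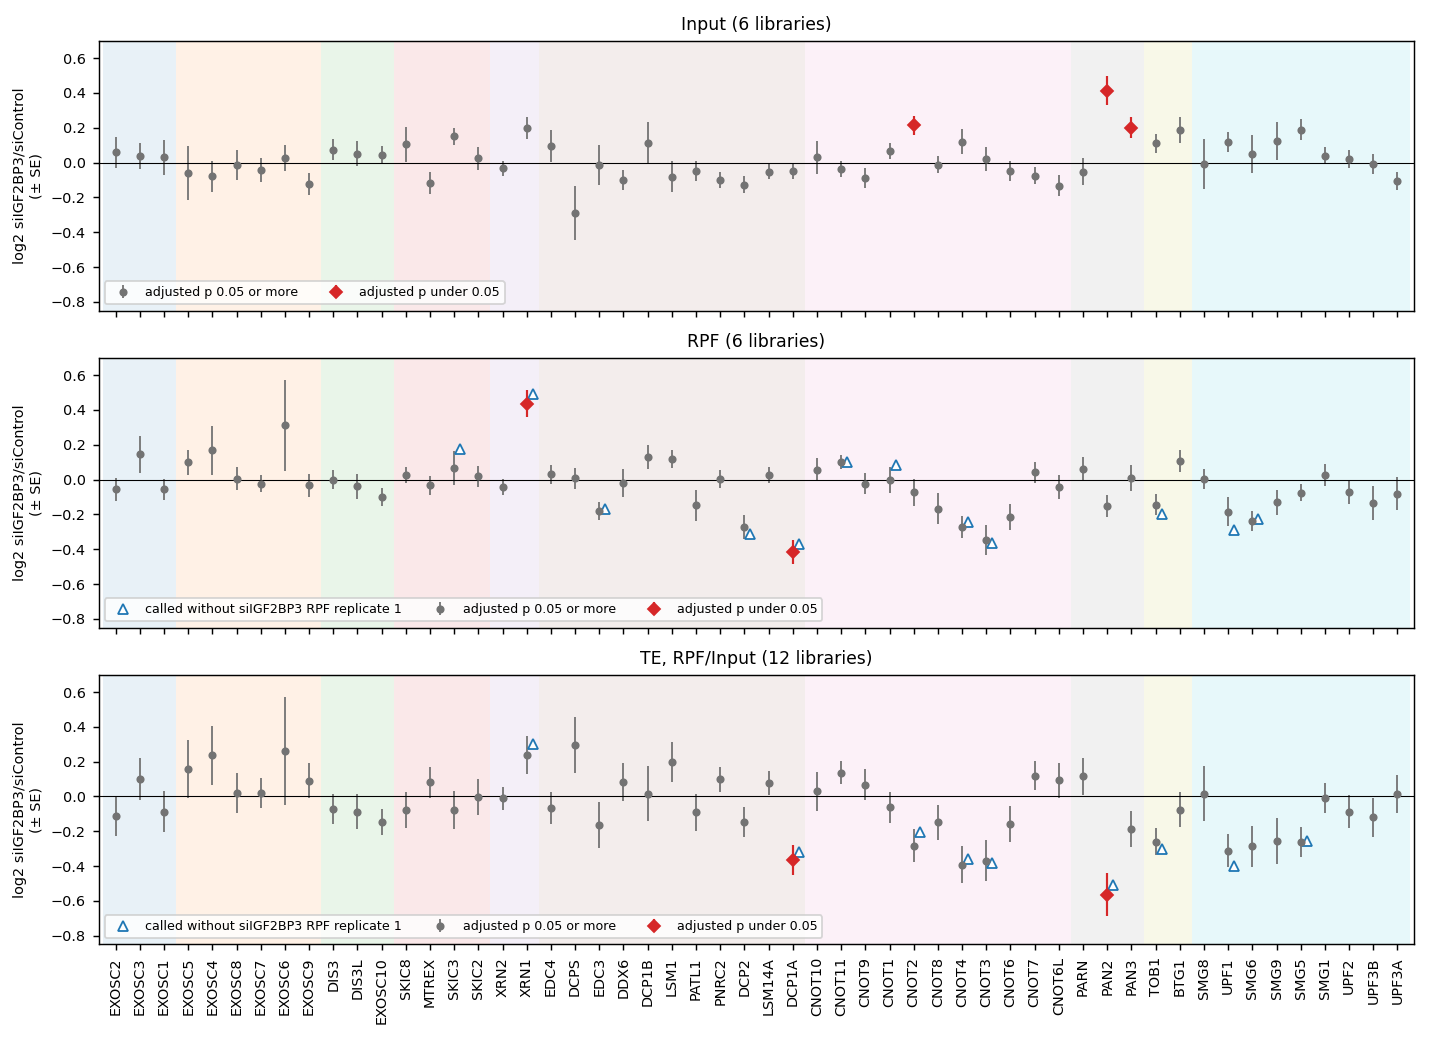
Log2 change after IGF2BP3 knockdown (vertical axes, siIGF2BP3 over siControl, ± SE) of the 54 decay genes in Input, in RPF and in RPF/Input (TE), in the gene order of the plot by complex. Red diamonds are genes with an edgeR adjusted p under 0.05, 3 in Input, 2 in RPF and 2 in TE, and open blue triangles are the values of genes called without siIGF2BP3 RPF replicate 1, 12 in RPF and 9 in TE.

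In footprints, 1 gene rose and 1 fell when all 6 RPF libraries were used, beside 1.66% of 20192 genes tested (1.02% higher, 0.649% lower), and the median log2 change of the 54 was -0.02. XRN1 (chr3:142306607-142448062, minus strand), which digests decapped mRNA, was at 20.5, 18.9 and 20.3 CPM in siControl RPF and at 23.4, 26.8 and 29.4 CPM in siIGF2BP3 RPF. All siIGF2BP3 libraries were above all siControl libraries, by 0.43 ± 0.08 on the log2 scale (edgeR adjusted p = 0.043). DCP1A (chr3:53283428-53347610, minus strand) was at 30.7, 32.2 and 32.0 CPM in siControl RPF and at 21.2, 23.1 and 25.7 CPM in siIGF2BP3 RPF, without overlap (-0.42 ± 0.07, edgeR adjusted p = 0.034). Its Input levels did overlap, at 186, 167 and 172 CPM in siControl and 173, 171 and 180 CPM in siIGF2BP3. Fractional counts were present in 6 libraries for DCP1A and in 3 for XRN1. XRN1 in Input was at 54.4, 62.1 and 54.6 CPM in siControl and 70.1, 65.6 and 68.2 CPM in siIGF2BP3, a log2 change of 0.20 ± 0.06 (edgeR adjusted p = 0.057).

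Both calls depended on which libraries were kept. With siControl RPF replicates 2 and 3 summed, 0.0673% of all genes and 0 of the 54 were called by edgeR. At an unadjusted p under 0.05 there were 7 of the 54, beside 2285 of 20790 genes. The changes were 0.43 ± 0.09 for XRN1 (edgeR adjusted p = 0.18) and -0.40 ± 0.08 for DCP1A (edgeR adjusted p = 0.18). Leaving out any one RPF library other than siIGF2BP3 replicate 1 also ended both calls. Without siIGF2BP3 RPF replicate 1, 16.5% of all genes were called and 12 of the 54, 4 of which rose and 8 of which fell (7.97% and 8.57% of all genes). XRN1 and DCP1A were among the 12, at 0.49 ± 0.05 and -0.37 ± 0.05 (edgeR adjusted p = 0.00021 and 0.0012). The p-values of this fit, here and below, rest mostly on libraries that agree nearly within sampling noise.

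**Figure D4:**
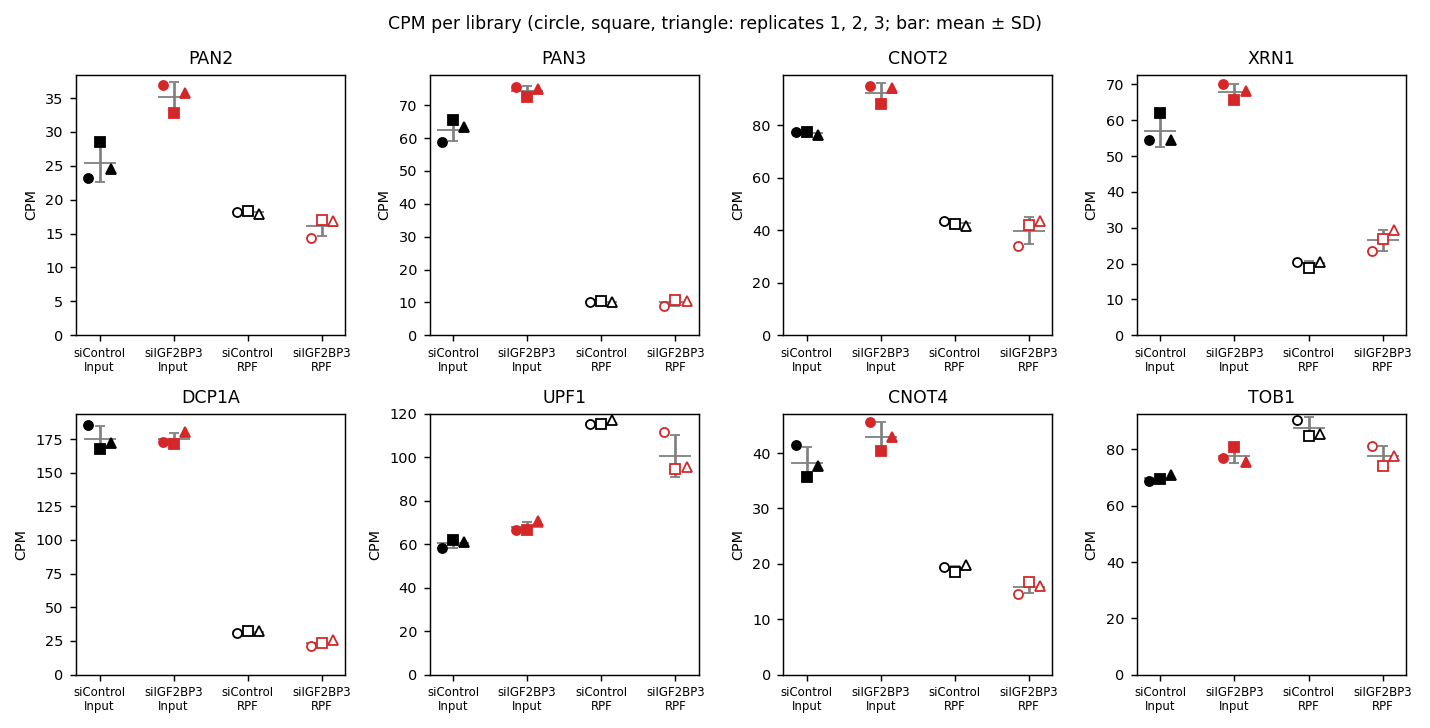
CPM (vertical axes, from 0) of 8 decay genes in each of the 12 libraries, Input filled and RPF open, siControl black and siIGF2BP3 red. Grey bars are group means ± SD, where siControl RPF replicates 2 and 3 count as 1 sample. PAN2, PAN3 and CNOT2 are higher in every siIGF2BP3 Input library than in any siControl Input library, and DCP1A, UPF1, CNOT4 and TOB1 are lower in every siIGF2BP3 RPF library than in any siControl RPF library.

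The other 10 genes called without siIGF2BP3 RPF replicate 1 are given by role, in the order siIGF2BP3 replicates 1, 2 and 3. The decapping enzyme DCP2 had 34.4, 35.4 and 31.3 CPM in siControl RPF and 28.6, 26.7 and 27.7 CPM in siIGF2BP3 RPF, a log2 change of -0.31 ± 0.05 without replicate 1 (edgeR adjusted p = 0.0030) and -0.27 ± 0.07 with it (0.11). EDC3, an enhancer of decapping, had 34.0, 33.1 and 34.8 CPM in siControl and 28.3, 29.9 and 30.6 CPM in siIGF2BP3 (-0.17 ± 0.04 without replicate 1, edgeR adjusted p = 0.018). In Input DCP2 had 149, 140 and 143 CPM in siControl Input and 143, 135 and 130 CPM in siIGF2BP3 Input, and EDC3 had 12.6, 14.7 and 15.3 CPM in siControl Input and 12.4, 14.3 and 17.0 CPM in siIGF2BP3 Input, so that both overlapped between the groups. In RPF, for both genes, replicate 1 lay on the same side of the siControl libraries as the other replicates. EDC3 shares 13.7% of its exon bases with CLK3 on the opposite strand.

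In CCR4-NOT the module subunit CNOT3 had 9.64, 9.41 and 8.82 CPM in siControl RPF and 7.32, 6.59 and 7.86 CPM in siIGF2BP3 RPF (-0.37 ± 0.08 without replicate 1, edgeR adjusted p = 0.013). The E3 ubiquitin ligase CNOT4 had 19.5, 18.6 and 19.7 CPM and 14.6, 16.7 and 15.95 CPM (-0.25 ± 0.05, edgeR adjusted p = 0.0082). These subunits were lower in every siIGF2BP3 RPF library. In Input, where they overlapped, CNOT3 had 38.3, 37.6 and 37.0 CPM in siControl Input and 41.6, 37.3 and 39.6 CPM in siIGF2BP3 Input, and CNOT4 41.4, 35.7 and 37.7 CPM in siControl Input and 45.5, 40.4 and 43.0 CPM in siIGF2BP3 Input. CNOT3 had fractional counts in all 12 libraries. In contrast, CNOT1 had 336, 330 and 339 CPM in siControl RPF and 283, 359 and 353 CPM in siIGF2BP3 RPF. Its change was 0.09 ± 0.02 without replicate 1 (edgeR adjusted p = 0.035) and 0.00 ± 0.07 with it, so that this call rests on the library left out, which alone lay below the siControl libraries. In Input CNOT1 had 344, 312 and 326 CPM in siControl Input and 361, 345 and 355 CPM in siIGF2BP3 Input. CNOT11, whose Input values overlapped at 129, 120 and 122 CPM in siControl and 123.4, 126 and 125 CPM in siIGF2BP3, had 162, 152 and 159 CPM in siControl RPF and 163, 171 and 169 CPM in siIGF2BP3 RPF, all 3 above the siControl libraries (0.10 ± 0.03 without replicate 1, edgeR adjusted p = 0.036). The calls of CNOT1 and CNOT11 were made in 1 of 16 alternative fits. Both were lost when siControl RPF replicates 2 and 3 were also summed, which left 10 of the 54 called, beside 14.5% of all genes. The SKI scaffold SKIC3 had 66.4, 62.2 and 60.9 CPM in siControl RPF and 52.9, 72.1 and 71.0 CPM in siIGF2BP3 RPF, where replicate 1 lay below and the others above (0.17 ± 0.04 without it, edgeR adjusted p = 0.0083, and 0.07 ± 0.10 with it). Its Input values were all higher after knockdown, at 100.0, 98.6 and 105 CPM in siControl and 113, 114 and 121 CPM in siIGF2BP3.

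UPF1 (chr19:18831938-18868236, plus strand) had 115, 115 and 117 CPM in siControl RPF and 112, 94.5 and 95.8 CPM in siIGF2BP3 RPF. All siIGF2BP3 libraries were lower, replicate 1 by the least, and the log2 change was -0.29 ± 0.03 without it (edgeR adjusted p = 0.00013) and -0.19 ± 0.08 with it (0.33). SMG6 had 22.7, 21.5 and 21.0 CPM in siControl RPF and 17.2, 18.4 and 19.0 CPM in siIGF2BP3 RPF (-0.22 ± 0.05 without replicate 1, edgeR adjusted p = 0.0097). The Input values of SMG6 overlapped, at 12.4, 11.6 and 13.3 CPM in siControl and 13.01, 12.7 and 14.3 CPM in siIGF2BP3. TOB1 had 90.4, 84.9 and 85.4 CPM in siControl RPF and 81.1, 74.3 and 77.7 CPM in siIGF2BP3 RPF (-0.20 ± 0.03, edgeR adjusted p = 0.0029). In Input TOB1 had 68.6, 69.7 and 71.1 CPM in siControl and 77.1, 80.9 and 75.6 CPM in siIGF2BP3, higher in every siIGF2BP3 library, but the change missed the threshold (0.11 ± 0.06, edgeR adjusted p = 0.26). Over all 54 genes, 13 had every siIGF2BP3 RPF library below every siControl RPF library and 3 (XRN1, CNOT11 and LSM1) had every one above, beside 14.8% and 10.9% of the genes tested.

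Footprints per transcript (TE, RPF/Input) fell for 2 of the 54 genes and rose for none in edgeR with all 12 libraries, beside 2.21% of 13395 genes tested (1.42% lower, 0.791% higher). A further 8 had only an unadjusted p under 0.05, 10 in all, beside 2120 of the 13395 genes tested. DESeq2 also called 2, both lower, beside 2.84% of all genes. The median log2 TE change of the 54 was -0.07, against 0.00 over all genes and -0.01 over the 54 without siIGF2BP3 RPF replicate 1. PAN2 had the largest fall among the 54, by 0.56 ± 0.12 on the log2 scale (edgeR adjusted p = 0.018). Its RPF values were 18.2, 18.4 and 17.9 CPM in siControl and 14.4, 17.1 and 16.8 CPM in siIGF2BP3, all lower than in control while the Input values were all higher, and the RPF change alone was -0.15 ± 0.07 (edgeR adjusted p = 0.31). PAN2 shares 114 exon bases with CNPY2 on the same strand, 1.56% of its own, and CNPY2 was at 102 CPM in siControl RPF. DCP1A fell in TE by 0.36 ± 0.09 (edgeR adjusted p = 0.030). With siControl RPF replicates 2 and 3 summed, 1.04% of all genes and 1 of the 54 were called, PAN2 at -0.56 ± 0.13 (edgeR adjusted p = 0.0498), while DCP1A was at -0.35 ± 0.09 (0.088). A further fit had a block for each condition and replicate number (pair block), which pairs Input and RPF libraries by number. The labels do not say that such a pair came from one culture. In that fit edgeR called 0 of the 54, beside 0.911% of all genes. At an unadjusted p under 0.05 it had 9, beside 1845 of 13395 genes. Leaving out any one siControl RPF library also ended both calls. Over the 24 alternative fits the call held in 16 for PAN2 and in 13 for DCP1A.

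Without siIGF2BP3 RPF replicate 1, 9.99% of all genes and 9 of the 54 were called in TE, 1 of which rose and 8 of which fell (4.41% and 5.58% of all genes). XRN1 rose by 0.30 ± 0.09 (edgeR adjusted p = 0.031), so that its footprints increased more than its transcript did in these 11 libraries. PAN2 was at -0.51 ± 0.11, UPF1 at -0.40 ± 0.06, CNOT3 at -0.38 ± 0.11, CNOT4 at -0.36 ± 0.10, DCP1A at -0.32 ± 0.07, TOB1 at -0.30 ± 0.06, SMG5 at -0.26 ± 0.08 and CNOT2 at -0.20 ± 0.07. With replicate 1 the values of UPF1, CNOT3, CNOT4, TOB1, SMG5 and CNOT2 were between -0.39 and -0.26, all in the same direction, and none passed the threshold. SMG5 and CNOT2 were not called when siControl RPF replicates 2 and 3 were also summed, which left 7 of the 54, beside 7.99% of all genes. UPF1, TOB1, SMG5, PAN2 and CNOT2 had all siIGF2BP3 Input libraries above the siControl ones, UPF1 at 58.3, 61.9 and 60.9 CPM in siControl Input and 66.4, 66.7 and 70.6 CPM in siIGF2BP3 Input. CNOT2 had 43.6, 42.3 and 41.7 CPM in siControl RPF and 33.9, 42.1 and 43.6 CPM in siIGF2BP3 RPF, so that its footprints overlapped between the groups. SMG5 had 29.1, 29.5 and 29.7 CPM in siControl RPF and 26.9, 27.5 and 28.6 CPM in siIGF2BP3 RPF, all lower after knockdown.

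The study examined XRN2, EXOSC2, EXOSC3, EXOSC4 and EXOSC7 as proteins that associate with IGF2BP proteins. It also knocked down EXOSC2 in cells that overexpressed IGF2BP3. The transcript and footprint levels given here are a different measure and do not bear on those experiments. The mRNAs of these genes gave no call. No exosome subunit, nuclease or helicase was called in Input, RPF or TE with all libraries, beside 5.96%, 1.66% and 2.21% of all genes in edgeR. DESeq2 called 0 of these 16 as well, beside 4.86%, 3.3% and 2.84% of all genes, where the shares include genes that DESeq2 gave no adjusted p. At an unadjusted p under 0.05 edgeR held 1 in Input (SKIC3, beside 3017 of 14759 genes), 0 in RPF (3251 of 20192) and 0 in TE (2120 of 13395). EXOSC2 had 22.6, 19.6 and 22.9 CPM in siIGF2BP3 Input and 37.1, 42.4 and 43.8 CPM in siIGF2BP3 RPF, overlapping the siControl values above (Input 0.06 ± 0.09, RPF -0.06 ± 0.06). EXOSC3 had 27.3, 29.2 and 28.4 CPM in siControl Input, 30.9, 30.0 and 29.2 CPM in siIGF2BP3 Input, 53.9, 48.0 and 46.0 CPM in siControl RPF and 61.4, 50.9 and 49.8 CPM in siIGF2BP3 RPF (Input 0.04 ± 0.08, RPF 0.14 ± 0.10). EXOSC4 had 21.4, 19.5 and 20.0 CPM in siControl Input and 18.1, 20.9 and 20.3 CPM in siIGF2BP3 Input. In RPF it had 48.6, 46.6 and 48.3 CPM in siControl and 65.9, 47.7 and 46.5 CPM in siIGF2BP3, where the high value is replicate 1, and the change was 0.17 ± 0.14 with that library and -0.03 ± 0.04 without it. EXOSC7 had 42.0, 39.2 and 40.2 CPM in siControl Input and 43.0, 38.9 and 39.8 CPM in siIGF2BP3 Input, and 55.1, 53.5 and 57.5 CPM in siControl RPF and 52.7, 54.7 and 53.99 CPM in siIGF2BP3 RPF. XRN2 had 217, 218 and 218 CPM in siControl Input, 222, 214 and 224 CPM in siIGF2BP3 Input, 271, 266 and 265 CPM in siControl RPF and 235, 268 and 266 CPM in siIGF2BP3 RPF, with a TE change of -0.01 ± 0.07.

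The following genes lie at the ends of their complexes in RPF/Input and were called in none of the 3 knockdown comparisons, with all libraries or without siIGF2BP3 RPF replicate 1. In the exosome barrel, EXOSC1 had 17.7, 16.7 and 15.9 CPM in siIGF2BP3 Input and 22.2, 22.7 and 23.0 CPM in siIGF2BP3 RPF. EXOSC5 had 6.33, 5.43 and 7.31 CPM in siIGF2BP3 Input and 41.3, 37.0 and 37.2 CPM in siIGF2BP3 RPF. EXOSC9 had 52.9, 55.5 and 56.7 CPM in siIGF2BP3 Input and 41.1, 49.2 and 46.1 CPM in siIGF2BP3 RPF. All 3 overlapped the siControl values above in both assays. Of the nucleases, DIS3 had 53.4, 57.4 and 58.3 CPM in siIGF2BP3 Input and 50.1, 55.9 and 58.2 CPM in siIGF2BP3 RPF. EXOSC10 had 103, 101 and 108 CPM in siIGF2BP3 Input and 65.0, 73.2 and 74.4 CPM in siIGF2BP3 RPF. Both were higher than in siControl in every Input library, and EXOSC10 was lower in every RPF library. In the SKI complex, SKIC8 had 14.7, 16.6 and 17.8 CPM in siIGF2BP3 Input and 63.1, 65.3 and 66.8 CPM in siIGF2BP3 RPF. SKIC2 had 58.3, 60.2 and 51.3 CPM in siIGF2BP3 Input and 23.9, 27.1 and 26.0 CPM in siIGF2BP3 RPF. In decapping, EDC4 had 19.9, 20.2 and 19.0 CPM in siIGF2BP3 Input and 87.8, 85.4 and 83.0 CPM in siIGF2BP3 RPF. These, too, overlapped between the groups in both assays, as did the next 5. CNOT10 had 17.1, 18.2 and 18.9 CPM in siIGF2BP3 Input and 34.2, 40.6 and 40.7 CPM in siIGF2BP3 RPF. CNOT6L had 65.4, 62.0 and 67.2 CPM in siIGF2BP3 Input and 12.3, 13.8 and 13.6 CPM in siIGF2BP3 RPF. In RPF, PARN had 35.0, 40.4 and 42.7 CPM after knockdown. SMG8 and UPF3A are the NMD genes at the ends of the order. SMG8 had 10.6, 7.79 and 12.5 CPM in siIGF2BP3 Input and 50.7, 56.7 and 56.8 CPM in siIGF2BP3 RPF. UPF3A had 231, 213 and 210 CPM in siIGF2BP3 Input and 19.2, 15.6 and 16.7 CPM in siIGF2BP3 RPF. BTG1 had 18.8, 20.6 and 21.1 CPM in siIGF2BP3 RPF, which overlapped siControl.

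Summed over the 54 genes, the decay mRNAs took 4245, 4065 and 4149 CPM in siControl Input and 4350, 4248 and 4305 CPM in siIGF2BP3 Input. In RPF the sums were 3015, 2948 and 2950 CPM in siControl and 2752, 2976 and 2986 CPM in siIGF2BP3, the lowest being replicate 1. The order of the 54 genes by RPF/Input was close to the same under knockdown, with an r of 0.99 between the conditions, which describes the same genes measured in each. The largest difference between conditions was 0.56, at PAN2. By complex, the median log2 TE change is given with all libraries and, in brackets, without siIGF2BP3 RPF replicate 1. It was -0.09 (-0.06) for the exosome cap, 0.12 (0.07) for the ring and -0.09 (-0.03) for the nucleases. The helicases and SKI complex were at -0.04 (0.03), the 5'-3' exonucleases at 0.11 (0.17) and decapping at 0.02 (0.05). CCR4-NOT was at -0.06 (0.03), PAN2-PAN3 and PARN at -0.19 (-0.13), the adaptors TOB1 and BTG1 at -0.17 (-0.17) and NMD at -0.12 (-0.07).

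The 6 NMD factors whose mRNAs are known NMD targets had log2 Input changes of 0.12 ± 0.06 (UPF1), 0.02 (UPF2), -0.01 (UPF3B), 0.04 (SMG1), 0.19 ± 0.06 (SMG5) and 0.05 ± 0.11 (SMG6), and none was called. Among 62 further genes of RNA decay, all tested, 3 rose and none fell in Input (beside 5.96% of all genes called): ZCCHC8 (0.35 ± 0.06, edgeR adjusted p = 3.0e-04) of the nuclear exosome targeting complex, the poly(A) polymerase TENT4A (0.22 ± 0.06, 0.026) and TNRC6A (0.19 ± 0.05, 0.018), which recruits CCR4-NOT to microRNA targets. In RPF 2 fell (beside 1.66%), BTG3 (-0.44 ± 0.07, edgeR adjusted p = 0.034), a relative of BTG1, and TNRC6B (-0.43 ± 0.07, 0.037), a paralogue of TNRC6A. TNRC6B had 19.7, 19.6 and 19.6 CPM in siControl RPF and 15.0, 13.3 and 15.1 CPM in siIGF2BP3 RPF. Fractional counts were present in 10 libraries for TNRC6B and in 8 for BTG3. In TE (beside 2.21%) 1 rose, RC3H2, an RNA-binding ubiquitin ligase (0.36 ± 0.09, edgeR adjusted p = 0.049), and 4 fell, TNRC6A (-0.51 ± 0.09, 0.0048), TNRC6B (-0.41 ± 0.09, 0.024), BTG3 (-0.45 ± 0.11, 0.043) and ZCCHC8 (-0.35 ± 0.09, 0.036). TNRC6A had 137, 141 and 145 CPM in siControl Input and 170, 161 and 167 CPM in siIGF2BP3 Input, but 28.4, 28.3 and 28.9 CPM in siControl RPF and 19.2, 22.9 and 24.7 CPM in siIGF2BP3 RPF. Like PAN2 and ZCCHC8, it was called higher in Input and lower in TE. TE divides by these same Input values, and their part in the TE values was not tested. As for the 54, these calls depended on the libraries kept: with siControl RPF replicates 2 and 3 summed, edgeR called 0 of the 62 in RPF (beside 0.0673% of all genes) and 1 in TE (beside 1.04%), TNRC6A at -0.50 ± 0.10 (adjusted p = 0.017). The replicate block likewise left 0 in RPF (beside 1.88%). In TE the replicate block and the pair block each left 1 (beside 1.55% and 0.911%). Without siIGF2BP3 RPF replicate 1, edgeR called 24 in RPF (9 rose and 15 fell, beside 16.5%) and 11 in TE (4 rose and 7 fell, beside 9.99%). The 62 genes had a median log2 RPF/Input of -0.68 in siControl, with the 21 deadenylation recruiters at -1.24 and the 6 other LSM ring genes at 0.38.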

How the data were processed

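Ribosome profiling of HepG2 cells gave 12 libraries, 3 in each of 4 groups, placed in groups by their titles. Per the labels, the authors used Cutadapt for trimming, STAR for alignment (hg38) and featureCounts for gene counts. Versions and the options for strand and shared reads are not given in the sources used here, nor is the making of the Input libraries. The deposited unit is the estimated count of each gene without any scaling for depth. Of the genes counted, 31.8% to 33.3% per Input library and 63.2% to 66.0% per RPF library had a fractional value, so genes with sequence copies or overlapping neighbours are uncertain. Fractional counts are not named above for every gene that had them. Counts were rounded, which changed a library's total by at most 0.0445%.

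Symbols, exons and MANE Select transcripts came from GENCODE release 44, which named 99.1% of the identifiers. Comparisons used edgeR 4.0.16 in R 4.3.3 (filterByExpr, TMM factors, robust quasi-likelihood tests) over all genes, with Benjamini-Hochberg adjustment and a threshold of 0.05. The RNA comparison used 6 Input libraries, the RPF comparison 6 RPF libraries, and TE the interaction of assay and knockdown over 12 libraries with TMM factors within each assay. RPF/Input in siControl came from the group means of the 12 libraries, with the median protein-coding gene at 0. Standard errors were derived from the estimates and their F statistics. The scripts were tested on simulated data. There were no molecular identifiers, and errors are those of the spread between libraries.

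The 54 genes, the 62 further genes and the tests were chosen with earlier results of these data known. Values in every library are given for genes called with all libraries or without siIGF2BP3 RPF replicate 1, for EXOSC2, EXOSC3, EXOSC4, EXOSC7 and XRN2, and for the highest and lowest of each complex in RPF/Input. Alternatives were DESeq2 1.42.0, upper-quartile and RLE factors, a mean of at least 5 CPM or no filter at all, and offsets for gene length. Others were a block for the replicate number or, for TE, for each condition and replicate number (pair block). TMM factors over all libraries for TE and leaving out each library completed them. An offset for GC content, and the summing of siControl RPF replicates 2 and 3 together with leaving out siIGF2BP3 RPF replicate 1, were added after seeing the data.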

Additional observations from a re-analysis of the deposited data

How the results depend on the processing

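Counts of called decay genes (3 in Input, 2 in RPF and 2 in TE) depended on the setting as follows. In Input, 6 were called at a mean of at least 5 CPM (beside 8.58% of all genes) and 5 with the GC offset (6.86%). Leaving out 1 library gave 1 to 4 (2.95% to 6.04%). In RPF, 1 was called with upper-quartile factors (beside 1.55% of all genes) and 4 with the GC offset (5.41%). With siControl replicates 2 and 3 summed it was 0 (0.0673%), and 10 with siIGF2BP3 replicate 1 also left out (14.5%). Leaving out 1 library gave 0 to 12 (0.0532% to 16.5%), the 12 without siIGF2BP3 replicate 1. In TE, 5 were called with the GC offset (beside 5.72% of all genes). The pair block gave 0 (0.911%), with 9 at an unadjusted p under 0.05 (beside 1845 of 13395 genes). With the replicates summed 1 was called (1.04%), and 7 with siIGF2BP3 RPF replicate 1 also left out (7.99%). Leaving out 1 library gave 0 to 9 (0.935% to 9.99%), the 9 without siIGF2BP3 RPF replicate 1. The PAN2 TE call held in 16 of 24 alternatives and that of DCP1A in 13 of 24. The cause was not tested. For RPF/Input in siControl, 50 to 53 of the 54 genes were called throughout, beside 72.8% to 89% of all genes.

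With the replicate number as a block, 3 decay genes were called in Input, 1 in RPF (XRN1 was lost) and 2 in TE. The shares of all genes were 6.31%, 1.88% and 1.55%. Deviations from the group means had an r between conditions of 0.017, -0.019 and -0.018 for the same number in Input. In RPF it was 0.12, 0.065 and 0.034. For different numbers it ran from -0.018 to 0.036 in Input and from -0.096 to 0.059 in RPF. Between Input and RPF of the same number it was 0.021, 0.0029 and 0.0091 in siControl and -0.13, -0.057 and -0.067 in siIGF2BP3. With 3 libraries per group, these values cannot tell whether libraries of one number share a culture or batch.

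Among genes called in a comparison with all libraries or without siIGF2BP3 RPF replicate 1, the sign turned only for CNOT1 in RPF, whose change was 0.00: it was -0.015 with upper-quartile factors, -0.0052 with no filter, -0.0055 with the replicate block, and from -0.0504 to 0.0854 when 1 library was left out. Without siIGF2BP3 RPF replicate 1 the sign also turned for 12 decay genes in RPF and 8 in TE, 0 of them called with or without that library, among them EXOSC4 (0.17 to -0.03) and EXOSC6 (0.31 to -0.07) in RPF.

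Over all genes, RNA gave 444 to 907 calls with 1 library left out, against 879. RPF gave 667 with DESeq2, 1086 with the GC offset, 14 with the replicates summed, 3025 with these summed and siIGF2BP3 replicate 1 left out, and 11 to 3410 with 1 library left out, against 336. TE gave 762 with the GC offset, 122 with the pair block, 141 with the replicates summed, 1081 with siIGF2BP3 RPF replicate 1 also left out, and 126 to 1347 with 1 library left out, against 296.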
